A study of Komagataella phaffii with 6 samples.

Results

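Protein folding in the endoplasmic reticulum was followed through 4 genes of the methylotrophic yeast Komagataella phaffii (formerly Pichia pastoris): KAR2 (PAS_chr2-1_0140), PDI1 (PAS_chr4_0844), ERO1 (PAS_chr1-1_0011) and HAC1 (PAS_chr1-1_0381). They were picked by locus tag for their role, out of 5040 genes in the count table, and not for their values, though earlier results of these data were known. The gene names come from prior knowledge of these locus tags and are not in the files. All 6 libraries were from wild-type strain X-33, pregrown for 40 h in 100 ml of the glycerol medium BMG, spun down and kept for 18 h in methanol medium. The 3 libraries with nitrogen came from BMM+N, which holds ammonium sulfate, and the 3 without nitrogen from BMM-N, which lacks a nitrogen source. The labels do not say whether replicates were separate cultures, so p-values measure the spread between these samples, which may be technical.

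Secretory proteins enter the endoplasmic reticulum unfolded and are folded there by resident chaperones and by enzymes that form disulfide bonds. When unfolded proteins build up, the membrane sensor Ire1 splices the HAC1 mRNA, and the Hac1 protein made from it raises the transcription of folding genes, a circuit called the unfolded protein response. K. phaffii is widely used to secrete foreign proteins under methanol-driven promoters, where KAR2, PDI1, ERO1 and HAC1 are common readouts of that response and common targets for engineering.

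None of the 4 genes changed detectably without nitrogen. KAR2 was 0.873-fold, PDI1 1.16-fold and ERO1 1.117-fold relative to the libraries with nitrogen, and all 3 intervals included no change. HAC1 was counted too rarely to enter the fit across genes. In that fit (edgeR's quasi-likelihood test, Benjamini-Hochberg adjusted p under 0.05), 0 of the 3 tested folding genes were called, and 0 had an unadjusted p under 0.05. Over all 3330 tested genes, 6.34% were called, with 3.66% higher and 2.67% lower without nitrogen, and 16.4% had an unadjusted p under 0.05. DESeq2 and limma-voom called none of the 3 either. Among genes within 1.2-fold of each one's mean CPM, 13 of 54 were called around KAR2, 19 of 127 around PDI1 and 19 of 425 around ERO1. With shares like these, a count of 0 in 3 genes does not set them apart from other genes.

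The libraries were shallow, at 302395 to 435003 counts in 5 of them and 127303 in replicate 3 without nitrogen, where each gene is measured least well. Levels are given in CPM, the customary depth-scaled count, relative here to each library's scaled total over the tested genes. They are shares of the measured transcripts, from the same amount of RNA per library. Neither RNA per cell nor the number of cells can be read from them. Counts were taken over coding sequence from libraries that read 3' ends, so fragments wholly in an untranslated region would be missed to a different extent in each gene. A difference in level between 2 genes is therefore not read as a difference in transcript abundance. Ratios of counts between genes are compared only from library to library, and genes of like CPM are genes of like counting depth.

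**Figure D1:**
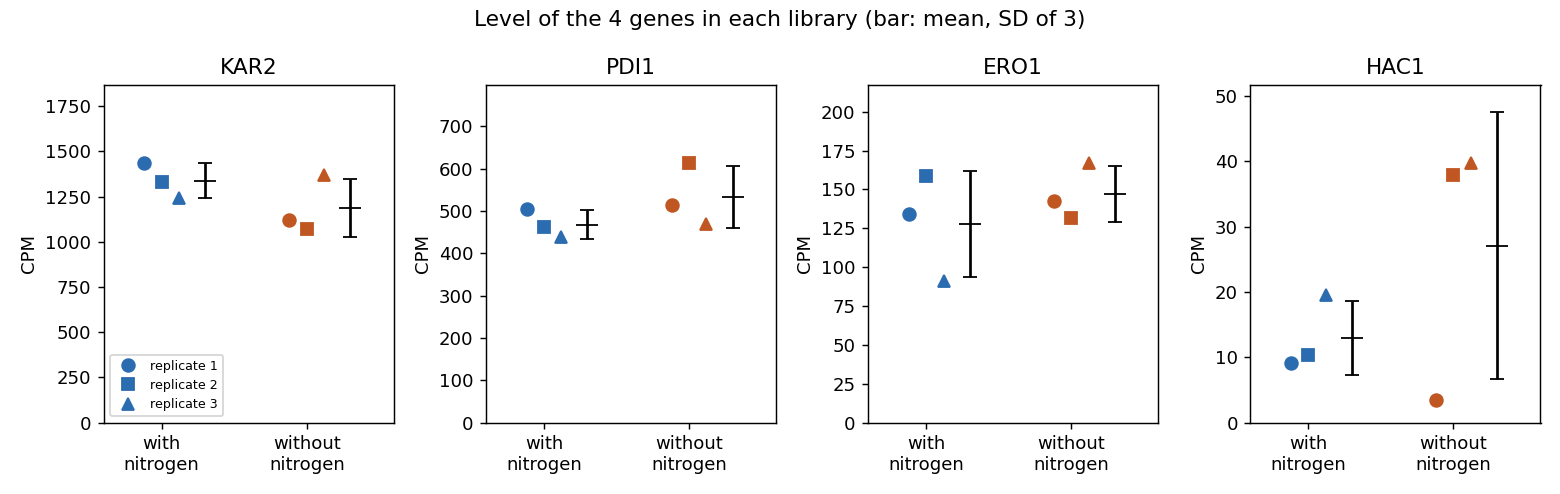
CPM of KAR2, PDI1, ERO1 and HAC1 (vertical axes from 0, each gene on its own scale) in the 3 libraries with nitrogen and the 3 without. Points are libraries, shaped by replicate number, and black bars are the mean and SD of 3. The groups overlap in every panel, and HAC1 without nitrogen runs from 3.48 to 39.8 CPM.

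KAR2 encodes the Hsp70 chaperone of the endoplasmic reticulum lumen, called BiP in animals, which binds unfolded chains and helps to pull proteins through the translocation channel. Its 1 coding exon spans 264385 to 266421 on chromosome 2, minus strand (ASM2700v1), and holds 2037 bp, or 678 codons without the stop. With nitrogen, KAR2 stood at 1437, 1333 and 1244 CPM in replicates 1 to 3, from 632, 387 and 383 counts. Without nitrogen it stood at 1121, 1071 and 1368 CPM, from 322, 424 and 172 counts. Replicates 1 and 2 without nitrogen were below every library with nitrogen, and the shallow replicate 3 was among them, so the groups overlapped.

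The mean of KAR2 was 1338 ± 96.8 CPM with nitrogen and 1187 ± 159 CPM without (SD, n = 3 each; exact permutation p = 0.3, two-sided, where 0.1 is the smallest possible). The fit gave a log2 fold change of -0.20 ± 0.13 (SE), with an edgeR adjusted p of 0.488 and a 95% interval from -0.45 to 0.05. In fold terms this interval runs from 0.734 to 1.04. The intervals of the fit hold little of KAR2's own spread between replicates, since the fit takes the spread from a trend over genes. Without the shallow replicate 3, the log2 fold change was -0.29, with an interval from -0.57 to -0.01 and an edgeR adjusted p of 0.294. Leaving out replicate 2 without nitrogen instead gave -0.12 (edgeR adjusted p = 0.831). The estimate was below 0 under all 16 alternatives, and none of them called the gene.

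PDI1 encodes protein disulfide isomerase, the lumenal enzyme that forms disulfide bonds in folding proteins and reshuffles wrong ones. Chromosome 4 carries it, on its minus strand, in 2 coding blocks, 1588618 to 1589474 and 1589614 to 1590172, which are 139 bp apart and make 1416 bp of counted sequence. With nitrogen, PDI1 stood at 504.8, 462 and 438 CPM, from 222, 134 and 135 counts. Without nitrogen it stood at 515, 614 and 469 CPM, from 148, 243 and 59 counts. Replicates 1 and 2 without nitrogen lay above every library with nitrogen, and replicate 3 lay inside their range.

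The mean of PDI1 was 468 ± 33.7 CPM with nitrogen and 533 ± 73.9 CPM without (SD, n = 3 each; exact permutation p = 0.2, two-sided). The fit gave a log2 fold change of 0.21 ± 0.15 (SE) with an edgeR adjusted p of 0.546, and its 95% interval from -0.09 to 0.51 spans 0.942-fold to 1.42-fold. Much of the estimate rested on replicate 2 without nitrogen, since without it the log2 fold change was 0.08 (edgeR adjusted p = 0.924). With that library kept and replicate 3 left out, it was 0.27 (edgeR adjusted p = 0.421). PDI1 was above 0 under all 16 alternatives and called under none.

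ERO1 encodes the flavin-bearing oxidase that hands oxidizing equivalents to protein disulfide isomerase, so that Ero1 and Pdi1 act as a relay. Its 1 coding exon of 1584 bp spans 560545 to 562128 on chromosome 1, plus strand. With nitrogen, ERO1 stood at 134, 158 and 90.9 CPM, from 59, 46 and 28 counts. Without nitrogen it stood at 143, 131 and 167 CPM, from 41, 52 and 21 counts. The lowest library was replicate 3 with nitrogen and the highest the shallow replicate 3 without, with the other 4 mixed between them.

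ERO1 averaged 128 ± 34.2 CPM with nitrogen and 147 ± 18.2 CPM without (SD, n = 3 each; exact permutation p = 0.5, two-sided). Its fit gave a log2 fold change of 0.16 ± 0.25 (SE), with an edgeR adjusted p of 0.847 and a 95% interval from -0.33 to 0.65, or 0.797-fold to 1.57-fold. The direction rested on 1 library: without replicate 3 with nitrogen, the log2 fold change was -0.02 (edgeR adjusted p = 0.982).

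**Figure D2:**
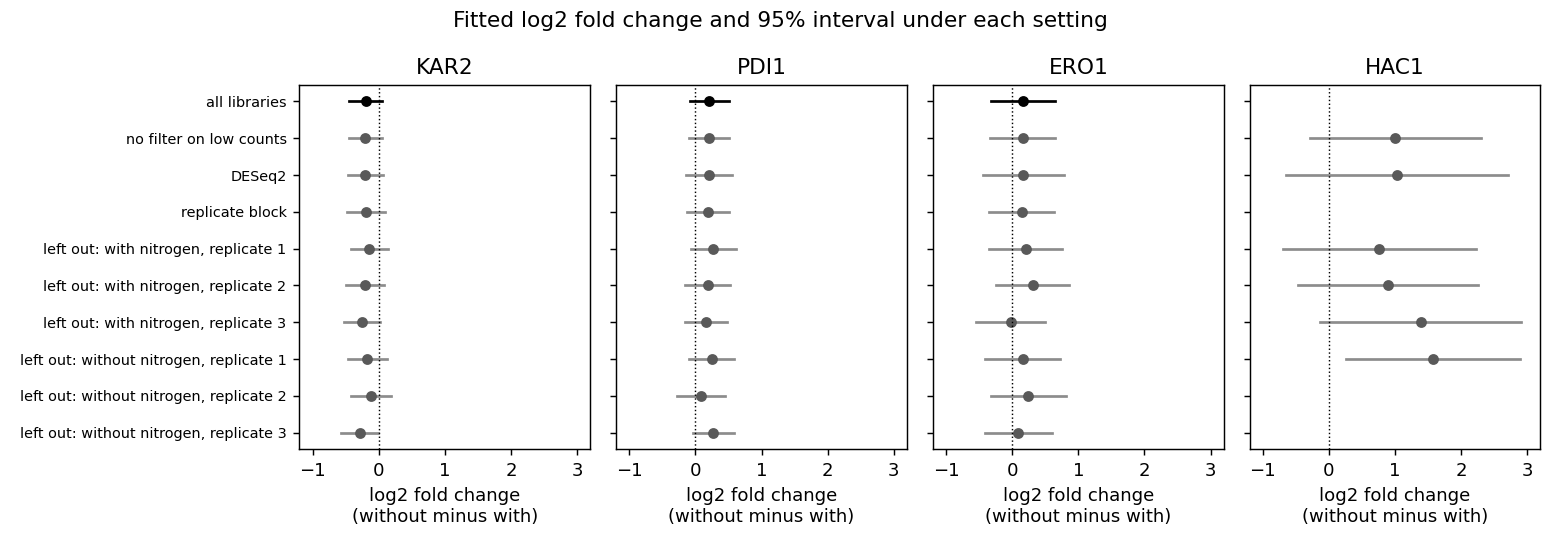
Fitted log2 fold change (horizontal axis, without minus with nitrogen) and its 95% interval for each gene, with all libraries (black) and under other settings or with 1 library left out (grey). KAR2 stays left of 0 and PDI1 right of it, ERO1 reaches -0.02 without replicate 3 with nitrogen, and HAC1 has intervals only where it passed the filter or none was used.

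HAC1 encodes the transcription factor of the unfolded protein response. The annotation gives it 1 coding exon of 996 bp at 1268884 to 1269879 on chromosome 1, plus strand. With nitrogen, 4, 3 and 6 HAC1 counts were found, which is 9.10, 10.3 and 19.5 CPM. Without nitrogen there were 1, 15 and 5 counts, or 3.48, 37.9 and 39.8 CPM. Replicates 2 and 3 without nitrogen were above every library with nitrogen, while replicate 1 was the lowest of all 6, so the group without nitrogen spanned the other group entirely.

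HAC1 averaged 13.0 ± 5.67 CPM with nitrogen and 27.1 ± 20.4 CPM without (SD, n = 3 each; exact permutation p = 0.4, two-sided). Counting error alone is wide here: the 1 count in replicate 1 without nitrogen is 3.30e-04% of that library, with an exact 95% interval from 8.36e-06% to 0.00184%, and the 15 counts in replicate 2 are 0.00379%, from 0.00212% to 0.00625%. These 2 intervals do not overlap, so the replicates differed by more than their counting intervals. With no filter on low counts, the fitted log2 fold change of HAC1 was 1.003 ± 0.66 (SE), with an edgeR adjusted p of 0.595 and a 95% interval from -0.29 to 2.30. With replicate 1 without nitrogen left out, HAC1 passed the filter and had a log2 fold change of 1.57 (edgeR adjusted p = 0.219, 95% interval from 0.26 to 2.89). The library left out there was the one with the lowest HAC1 level. HAC1 also passed with replicate 1, 2 or 3 with nitrogen left out, at 0.76, 0.90 and 1.39 (edgeR adjusted p = 0.72, 0.64 and 0.42). In all these fits it passed through replicates 2 and 3 without nitrogen, where it was high, so these values are no separate support for a change. No change of HAC1 was detected with these counts and this spread between replicates. The table gives 1 count per gene, so spliced and unspliced HAC1 mRNA, which carry the state of the response, cannot be told apart in it.

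Set against all tested genes, the 3 estimates were not among the larger ones. Most of those genes were counted less often than KAR2 and PDI1: the median tested gene had 13 to 45 counts per library. Changes of rarely counted genes spread more from counting error, so the ranking does not show what is ordinary at the depth of KAR2 or PDI1. The log2 fold changes of all 3330 genes had an SD of 0.44 around a median near 0, and 58.4% of genes had a larger absolute change than KAR2, 55.8% than PDI1 and 64.4% than ERO1. What could be called at these levels is seen from genes of like CPM, within 1.2-fold of a folding gene's mean CPM. Around KAR2, 13 of 54 such genes were called, the smallest at an absolute log2 fold change of 0.38. Around PDI1, 19 of 127 were called, the smallest at 0.45. Around ERO1, 19 of 425 were called, the smallest at 0.70. The estimates of KAR2, PDI1 and ERO1 were all below these sizes. That adds nothing to their not being called, since genes of like CPM have nearly the same SE and are called by size.

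**Figure D3:**
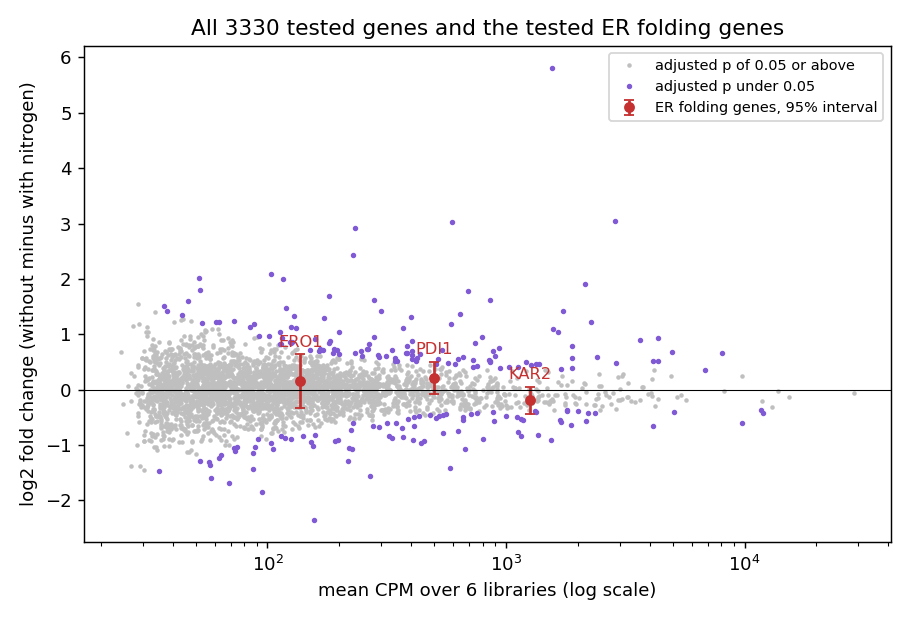
Log2 fold change (vertical axis, without minus with nitrogen) against mean CPM over 6 libraries (log axis) for all 3330 tested genes. Purple points had an adjusted p under 0.05. KAR2, PDI1 and ERO1 (red, with 95% intervals) lie inside the band of genes that were not called.

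The groups did not overlap in CPM for 20.2% of the 3330 tested genes, and for 0 of the 4 folding genes. The spread of counts between replicates, as a chi-square per degree of freedom on the scaled totals behind the CPM, was 2.55 for KAR2 with nitrogen and 3.74 without. Counting error alone gives about 1 on average over genes, with a median below 1. The value of a single gene varies widely around that with so few libraries. The medians over all tested genes were 1.31 and 1.23. PDI1 had 0.9001 and 2.47, ERO1 2.77 and 0.436, and HAC1 0.857 and 4.34. The scaling sets part of this with nitrogen, since on unscaled library totals KAR2 had 5.01 and PDI1 1.80.

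Ratios between the genes within a library need no scaling and ask whether chaperone, isomerase and oxidase transcripts kept their proportions. PDI1 gave 35.1, 34.6 and 35.3 counts per 100 KAR2 counts in the 3 libraries with nitrogen. Without nitrogen it gave 46.0, 57.3 and 34.3. The ratio was nearly the same in all libraries with nitrogen, closer than their counting intervals (30.01 to 41.0 in replicate 1), and in replicate 3 without nitrogen, but higher in replicates 1 and 2 without nitrogen. The counting interval of replicate 2, 48.7 to 67.3, lay above all 3 intervals with nitrogen, the highest of which ended at 43.0. That of replicate 1 without nitrogen, 37.6 to 56.0, overlapped all 3.

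As a group difference this did not hold up: PDI1 to KAR2 had a log2 ratio of -1.51 ± 0.0134 in the libraries with nitrogen and -1.15 ± 0.368 in the others (SD, n = 3 each), a difference of 0.36 (exact permutation p = 0.4, adjusted p = 0.8 over 6 pairs). Leaving out a library moved that difference between 0.18 and 0.55, the latter without the shallow replicate 3.

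ERO1 gave 9.34, 11.9 and 7.31 counts per 100 KAR2 counts with nitrogen and 12.7, 12.3 and 12.2 without. All 3 libraries without nitrogen lay above all 3 with nitrogen, by as little as 12.2 against 11.9, far inside the counting interval of either library (7.37 to 19.3 and 8.56 to 16.2). The log2 ratio differed by 0.41 between groups (-3.41 ± 0.346 and -2.99 ± 0.0304, SD, n = 3 each; exact permutation p = 0.1, the smallest possible, adjusted p = 0.6 over 6 pairs). It was the 1 pair of the 6 whose groups did not overlap. Without replicate 3 with nitrogen the difference was 0.24, and without replicate 2 with nitrogen it was 0.59.

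**Figure D4:**
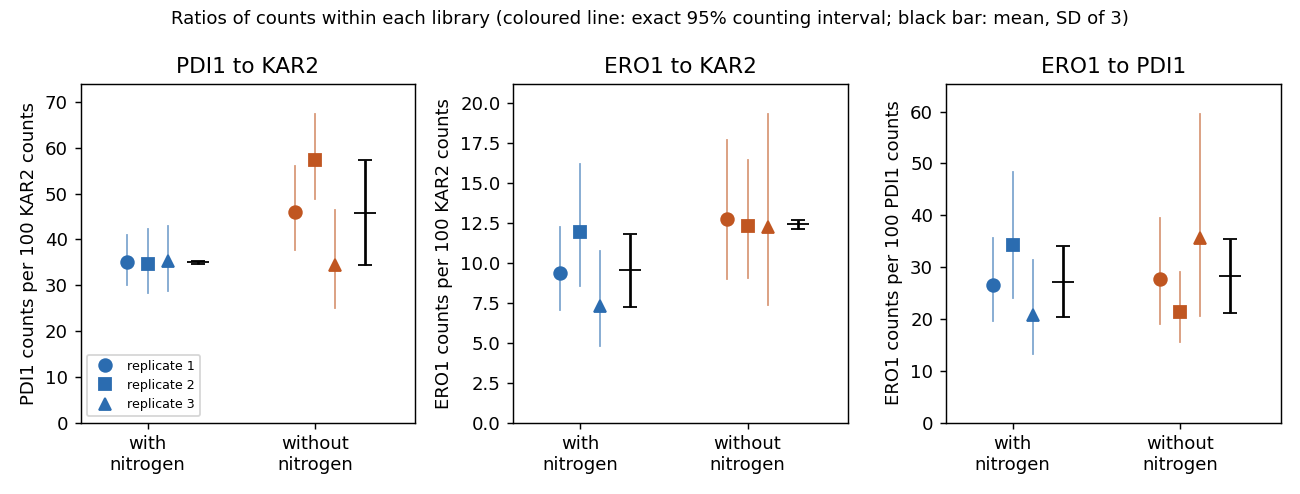
Counts of one gene per 100 counts of another within each library (vertical axes from 0), for PDI1 to KAR2, ERO1 to KAR2 and ERO1 to PDI1. Coloured lines are exact 95% counting intervals, and black bars are the mean and SD of 3. PDI1 to KAR2 is 34.6 to 35.3 in the libraries with nitrogen and 34.3 to 57.3 without.

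For the relay partners, there were 26.6, 34.3 and 20.7 ERO1 counts per 100 PDI1 counts with nitrogen and 27.7, 21.4 and 35.6 without, with overlapping groups (log2 difference 0.05, exact permutation p = 0.7). Leaving out replicate 3 of one or the other group turned the sign of this difference. The ratios of HAC1 to KAR2, PDI1 and ERO1 differed by 0.77, 0.41 and 0.36 on the log2 scale (exact permutation p = 0.5, 0.8 and 0.8), with SDs without nitrogen of 1.66 to 1.71. Leaving out a library moved the difference of HAC1 to KAR2 from 0.24, without replicate 2 without nitrogen, to 1.73, without replicate 1 without nitrogen. Summed, KAR2, PDI1, ERO1 and HAC1 made up 0.190% ± 0.0195 of the counts in libraries with nitrogen and 0.185% ± 0.0164 in those without (SD, n = 3 per group; exact permutation p = 0.7).

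Across the 6 libraries, log2 CPM of KAR2 and PDI1 had a Pearson correlation of -0.63, KAR2 and ERO1 0.23, and PDI1 and ERO1 0.17. These are descriptions over 6 points that share their depth and scaling. The value of -0.63 pools 2 unlike patterns. With nitrogen both KAR2 and PDI1 fell from replicate 1 to replicate 3, and without nitrogen the replicates ranked in opposite order for the 2 genes. Among 2668 tested genes with at least 50 CPM, the gene most like KAR2 in this measure was PAS_chr1-1_0405 (r = 0.976), the one most like PDI1 was PAS_chr2-2_0496 (r = 0.961) and the one most like ERO1 was PAS_chr1-4_0162 (r = 0.978). None of these 3 was called (edgeR adjusted p = 0.495, 0.130 and 0.835), and the reference names no function for them. With 6 points, 1.12% of these genes reached r above 0.9 with KAR2, 0.375% with PDI1 and 0.937% with ERO1.

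The genes next to the folding genes were looked at because 3' end reads can spill past a gene. Downstream of KAR2 and PDI1, in the same orientation, PAS_chr2-1_0139 began 200 bp away and PAS_chr4_0843 154 bp away, with log2 fold changes of -0.03 ± 0.36 and -0.05 ± 0.25 (SE). ERO1 faces PAS_chr1-1_0012 across 50 bp, and that gene had 0 to 1 counts per library. The gene downstream of HAC1, PAS_chr1-1_0382, lies 1498 bp away in the same orientation, and fell by 0.65 on the log2 scale (SE 0.19; edgeR adjusted p = 0.0129), at 21 to 184 counts. Its call was lost in 5 of 16 alternatives, among them DESeq2 (adjusted p = 0.0739) and the fits without replicate 1 with nitrogen (edgeR adjusted p = 0.277), without replicate 2 without nitrogen (edgeR adjusted p = 0.112) and without replicate 3 without nitrogen (edgeR adjusted p = 0.0619). It was the 1 called gene among the 8 direct neighbours of the 4 folding genes, of which 6 were tested. Over all 3330 tested genes 6.34% were called, and 1 in 6 is too small a count to set the neighbours apart. Upstream of KAR2, PDI1 and HAC1, the neighbours had log2 fold changes of -0.12, -0.47 and 0.24 and were not called.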

How the data were processed

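Each of the 6 libraries took 300 ng of RNA through the forward QuantSeq kit, which reads 3' ends, per the labels' protocols. The authors deposited raw counts per gene in 1 table. Per the submitters' processing notes, Trimmomatic, HISAT2 and featureCounts were used; versions, settings and strand handling: not given in the sources used here. Positions match RefSeq assembly ASM2700v1 of strain GS115 for all 5040 locus tags.

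The counts were fitted with edgeR 4.0.16 (R 4.3.3): filterByExpr with a minimum count of 10, TMM scaling, a quasi-likelihood F-test without a replicate block, and Benjamini-Hochberg adjustment over 3330 genes with a threshold of 0.05. An SE is the size of the log2 fold change over the root of F. The prior degrees of freedom were 985, so a gene's SE and interval come nearly all from the trend over genes and hold little of its own spread. CPM divide each count by the TMM-scaled total of the tested genes. Ratios added 0.5 to each count for the log2 values. Log2 CPM for correlations used a prior count of 2. Exact permutation tests were run in scipy 1.17.1. Clopper-Pearson intervals at 95% cover counting error only. Alternatives used DESeq2 1.42.0 and limma 3.58.1 (voom). The spread of counts on scaled totals was added after the data were seen.

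The 4 genes and all lists were chosen with earlier results of these data known. The text names the 4 genes whatever their result, their direct neighbours, and for each tested one the gene of at least 50 CPM with the highest correlation. Of 51 symbols listed for other secretory pathway genes, 0 are in the reference table, so none is analysed here. Lists by protein sequence and promoter motifs were not analysed here, since no sequence table was used.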

Additional observations from a re-analysis of the deposited data

How the results depend on the processing

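None of the settings tried called KAR2, PDI1 or ERO1. Over 16 alternatives, the log2 fold change of KAR2 ran from -0.29 to -0.12 (adjusted p 0.294 to 0.831), that of PDI1 from 0.08 to 0.27 (0.403 to 0.924) and that of ERO1 from -0.02 to 0.34 (0.710 to 0.982). The extremes of KAR2 and PDI1 came from leaving out a library. ERO1 ran from -0.0244, without replicate 3 with nitrogen, to 0.31 with a library left out, and reached 0.34 with all libraries thinned to 127303 counts. For HAC1, the log2 ratio of mean CPM was 1.06, and 0.67 to 1.58 with a library left out. Limma-voom, edgeR's robust setting and the stricter filter gave HAC1 no value, since the filter removes it.

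The count of called genes, 211, fell to 117 with DESeq2 and to 121 with thinning, and was 129 to 183 with a library left out. It fell over 1.5 times without replicate 2 with nitrogen (132) and without replicates 1 (132) or 2 (129) without nitrogen. With the replicate block 168 genes were called, and KAR2, PDI1 and ERO1 had adjusted p of 0.627, 0.682 and 0.870. Nothing shows that equal replicate numbers mark paired libraries: after group means were removed, libraries sharing a number correlated at -0.067, -0.0321 and -0.0579, and 0 of 6 correlated best with its own number.

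With a library left out, the log2 difference of ERO1 to PDI1 ran from -0.13 to 0.24, of HAC1 to PDI1 from -0.21 to 1.39, and of HAC1 to ERO1 from -0.18 to 1.33, each with sign turns. The difference in the summed share of counts, -0.00497 percentage points, ran from -0.0142 to 0.00521 with a library left out and was 0.00971 without KAR2 in the sum (exact permutation p = 0.2). Among the other named genes with a library left out, PAS_chr2-1_0139 ran from -0.24 to 0.18, PAS_chr2-1_0141 from -0.52 to 0.22, PAS_chr4_0843 from -0.16 to 0.0918, PAS_chr1-1_0379 from -0.0912 to 0.52 and PAS_chr1-4_0162 from -0.0207 to 0.26 (log2 fold change), each with sign turns. PAS_chr1-1_0382 stayed below 0, from -0.80 to -0.46, and lost its call also with thinning (adjusted p = 0.0535). The causes were not tested. Alternatives planned for gene lists and promoter motifs were not run. HAC1 had 1 to 15 counts per library, and thinning gave it a log2 ratio of 0.89.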
